A study of Bos taurus with 12 samples.

Results

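The ERBB receptors ERBB3, ERBB2 and EGFR, the ERBB ligands BTC, AREG and NRG1, the FGF receptors FGFR1 and FGFR2 and the FGF ligands FGF2 and FGF7 were followed in laser-captured bovine mammary tissue. These 10 genes were listed by name, and every probe set annotated with 1 of their symbols alone was taken. Of the 10 genes, 8 had such a probe set, among 9155 genes on the array that did. They were read by 16 probe sets of 24016 other than controls. ERBB2 and FGF7 had none and were not analysed here. The genes were listed with earlier results of these data known.

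Intralobular stroma and epithelium were captured from frozen sections of explants from 6 dry cows, sampled 3 weeks before calving. Per the labels, 4 cows had lactation number 1 and the others 2 and 3, although all are described as multiparous in the methods. Before freezing, the explants of both tissues were cultured for 2 h with insulin and hydrocortisone and with BrdU at 50 µM, a thymidine analog that marks dividing cells. Each of the 12 arrays (6 of stroma and 6 of epithelium, 1 of each per cow) measured the amplified RNA of 1 capture. Per the methods, stromal captures were aimed at fibroblasts but hold a mixture of cells, and 4 slides were pooled for stroma and 2 for epithelium.

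ERBB and FGF receptors are tyrosine kinases of the cell surface that start the RAS-MAPK and PI3K-AKT pathways when a ligand brings receptors together. Both families carry signals between the stroma and the epithelium of the mammary gland. In mice, AREG and EGFR act in ductal growth and neuregulin in alveolar growth. FGFR2 is spliced into a form of epithelial cells, which binds FGF7 and FGF10, and a form of mesenchymal cells. The probe sets here were not assigned to either form.

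Values are log2 RMA values, the normalized brightness of a probe set. The array medians lay between 2.95 and 3.08, and a value below them is not separated from background here. The arrays give the tissue of a transcript and not its amount per cell, so fewer cells of a type and less RNA per cell cannot be told apart. The 10000 brightest probe sets by their average on the 12 arrays, down to a mean of 3.57, were tested in limma, with terms for tissue and cow. The adjusted p is by the Benjamini-Hochberg method over all of them, with a threshold of 0.05, and n is 6 cows throughout. Differences are stroma minus epithelium, with their standard error (SE). Of the 16 probe sets, 6 (of the 4 genes ERBB3, FGFR1, FGFR2 and FGF2) were among the 10000. For the other 10, values come from a fit that took in all 24016, in which 3.38% passed in either direction and 1.62% were higher in epithelium.

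Markers separated the captures. The mean over 10 luminal markers was 4.55 to 6.21 in stroma and 7.36 to 8.44 in epithelium, with 9 of the 10 higher in epithelium. The mean over 9 fibroblast markers was 9.72 to 10.5 in stroma and 3.39 to 5.90 in epithelium, with all 9 higher in stroma. Myoepithelial markers, 6 of 8 of them tested, averaged 6.18 to 7.52 in stroma and 5.07 to 6.07 in epithelium. MYLK was the sole one of them that passed (difference 2.10, limma adjusted p = 0.0243). ACTA2 and CNN1 differed by 1.58 and 1.30, and the keratins KRT5, KRT14 and KRT17 by 0.30, 0.65 and 0.33. Tested endothelial (2 of 7) and plasma cell (2 of 5) markers were all higher in stroma, and none of the tested macrophage (3 of 5) or T and NK cell (4 of 6) markers passed in either tissue. FABP4, the sole adipocyte marker of 5 tested, was higher in stroma (difference 4.02), and of 3 tested Schwann cell and nerve markers S100B was higher in epithelium (difference -1.39, limma adjusted p = 0.0495). The added polyadenylated control RNA was uneven. It averaged 4.15 to 10.99 in stroma and 3.07 to 6.58 in epithelium, and the highest values were those of the stroma of cow 5 (10.99) and cow 6 (10.4). The gap between the 3′ and 5′ GAPDH probe sets averaged 3.35 in stroma and 2.67 in epithelium, and arrays correlated with those of the same tissue at a mean of 0.72 to 0.82 in stroma and 0.84 to 0.88 in epithelium. The part of these values in the results below was not tested.

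Of the 6 tested probe sets, 2 were higher in epithelium, 1 of ERBB3 and 1 of FGFR2, and 4 did not pass. The background was 4.77% of all tested probe sets higher in epithelium and 4.54% higher in stroma, or 9.31% in either direction. None of the 6 was higher in stroma (limma, 0 also at an unadjusted p under 0.05, against 4 in epithelium at that level). Of all tested probe sets, 14.6% were higher in epithelium at that level and 8.89% higher in stroma. Of the 10 probe sets outside the test, 0 passed in the fit of all probe sets, and 0 had an unadjusted p under 0.05. The median difference of the 6 was -2.26, and that of all tested probe sets was -0.18. FGFR2 gave 3 of the 6, so these counts and this median are not over independent genes. In the brightest probe set of each gene, the differences were -3.75 (ERBB3), -2.96 (FGFR2), -0.39 (FGF2) and 0.16 (FGFR1). The 4 probe sets with an unadjusted p under 0.05, both called ones among them, entered the test through their epithelial level. Their stromal means (3.39 for ERBB3 and 3.38, 3.22 and 2.95 for FGFR2) lay under the lowest mean tested. NRG1, with means of 4.16 in stroma and 2.36 in epithelium, lay outside the test. The count of 4 against 0 and the median of -2.26 are therefore not read as a direction of the members.

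**Figure D1:**
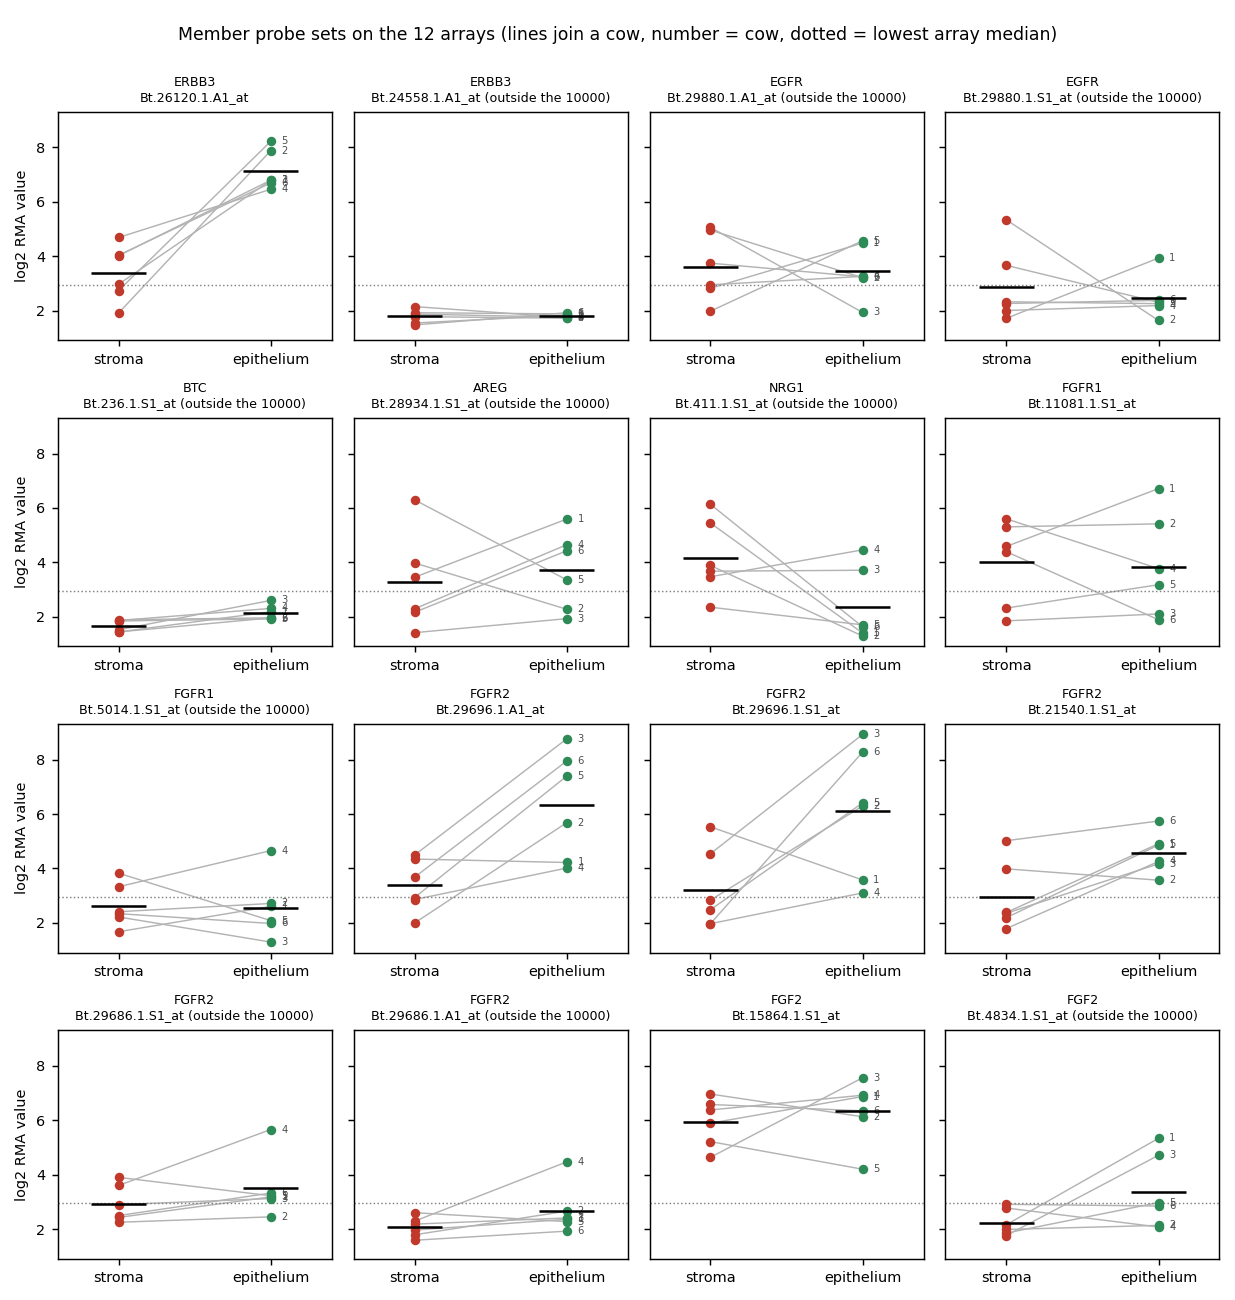
Log2 RMA value (vertical axis) of the 16 probe sets on 12 arrays, with stroma in red, epithelium in green, a line for each of the 6 cows, black bars for means and a dotted line at the lowest array median of 2.95. The ERBB3 probe set at the top left is higher in epithelium in all 6 cows, and BTC lies below the dotted line on every array.

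ERBB3, the neuregulin receptor with little kinase activity of its own, which signals as a partner of other ERBB receptors, was the member with the clearest tissue difference. Its brighter probe set, Bt.26120.1.A1_at, had values of 1.91 to 4.69 in stroma (median 3.49) and 6.46 to 8.23 in epithelium (median 6.79). The ranges do not overlap, which held in the same direction for 2.8% of all tested probe sets. Stroma lay above the median of its own array in 3 of 6 cows, and epithelium in 6 of 6.

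The mean of that probe set was 3.39 ± 1.03 in stroma and 7.14 ± 0.73 in epithelium (SD, n = 6 each), a difference of -3.75 (SE 0.60, limma adjusted p = 0.00550). It was thus lower in stroma by 13.4-fold, with a 95% interval of 5.25 to 34.5-fold. As the stroma of cows 2, 3 and 5 lay under the medians of their arrays, these folds depend on the background. Relative to the tested median, the difference was -3.56. The difference was negative in all 6 cows, as it was for 9.34% of tested probe sets, and ran from -5.97 in cow 2 to -1.77 in cow 4. The stroma of cow 4 had both the highest ERBB3 value (4.69) and the highest mean of luminal markers (6.21). Without cow 4 the difference was -4.14, and without cows 5 and 6 it was -3.59 (adjusted p = 0.0365).

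The other ERBB3 probe set, Bt.24558.1.A1_at, read near background on every array. Its values were 1.47 to 2.15 in stroma and 1.72 to 1.92 in epithelium, all under the medians of their arrays. No direction is read from it, and the tissue difference of ERBB3 rests on a single probe set. With the mean over both probe sets standing for the gene, the difference was -1.88 (limma over 9155 genes, adjusted p = 0.0160).

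Among 5211 other tested genes, those with the pattern most like ERBB3 over the 12 arrays were CGN and CDH1, both of epithelial cell junctions, and MTARC2, a mitochondrial enzyme. Likeness was the root mean square distance of values after each probe set was centred on its own mean. It was 0.74 for CGN, 0.76 for CDH1 and 0.94 for MTARC2 on the log2 scale.

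EGFR, the receptor of AREG and BTC, showed no tissue difference at this precision, in 2 dim probe sets outside the test. Probe set Bt.29880.1.A1_at had 1.98 to 5.06 in stroma (median 3.35) and 1.93 to 4.57 in epithelium (median 3.25). The other, Bt.29880.1.S1_at, designed from the same source sequence, had 1.71 to 5.34 in stroma (median 2.29) and 1.63 to 3.93 in epithelium (median 2.28). The ranges overlap in both, and in the second the stroma of cow 2 (5.34) lay above every epithelial value. In the first, 3 of 6 stromal and 5 of 6 epithelial arrays were above their medians. The means of the second (2.88 in stroma and 2.45 in epithelium) were below the array medians, and no direction is read from it.

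Stroma was the higher tissue in 3 of 6 cows for each EGFR probe set. The first differed by 0.14 (SE 0.74, adjusted p = 0.943), with a 95% interval of -1.59 to 1.87. For the second the difference was 0.44 (SE 0.69, adjusted p = 0.781, interval -1.18 to 2.05). The sign of the second turned without cow 2, and that of the first without cow 2 or cow 3.

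Among ERBB ligands, none passed, and each was read by 1 probe set outside the tested 10000. BTC, a ligand of EGFR and ERBB4 (probe set Bt.236.1.S1_at), had 1.44 to 1.89 in stroma (median 1.68) and 1.92 to 2.60 in epithelium (median 2.07). All 12 values are under their array medians, so by the rule used here BTC was not separated from background in either tissue. The ranges do not overlap, as for 1.34% of all 24016 probe sets in this direction, and the difference was -0.49 (SE 0.21, adjusted p = 0.30, interval -0.98 to 0.01). All 6 cows had the lower value in stroma, as for 4.95% of all probe sets.

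AREG, a ligand of EGFR, varied more between cows than between tissues. In probe set Bt.28934.1.S1_at its values were 1.41 to 6.30 in stroma (median 2.87) and 1.93 to 5.59 in epithelium (median 3.89). The difference was -0.44 (SE 0.79, adjusted p = 0.810), with an interval of -2.29 to 1.41, and stroma was lower in 4 of 6 cows. Leaving out 1 cow gave -1.11 (without cow 5) to -0.05 (without cow 4). Within cows it ran from -2.36 to 2.94, and the stroma of cow 5 held the highest value of all (6.30).

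NRG1, the ligand of ERBB3 and ERBB4, was the member whose mean was furthest towards stroma. In probe set Bt.411.1.S1_at it had 2.35 to 6.14 in stroma (median 3.78) and 1.29 to 4.46 in epithelium (median 1.66). Stroma lay above its array median in 5 of 6 cows and epithelium in 2 of 6. Epithelium was low in cows 1, 2, 5 and 6, at 1.29 to 1.70, and at 3.71 in cow 3 and 4.46 in cow 4.

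The mean of NRG1 was 4.16 ± 1.39 in stroma and 2.36 ± 1.36 in epithelium (SD, n = 6 each). The difference of 1.80 (SE 0.78) did not pass (limma adjusted p = 0.304), and its interval ran from -0.04 to 3.63. Stroma was higher in 4 of 6 cows. The adjusted p stayed between 0.208 and 0.582 over 13 alternatives. ERBB3 and its ligand NRG1 thus had means on opposite sides, of which only the difference of ERBB3 passed.

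**Figure D2:**
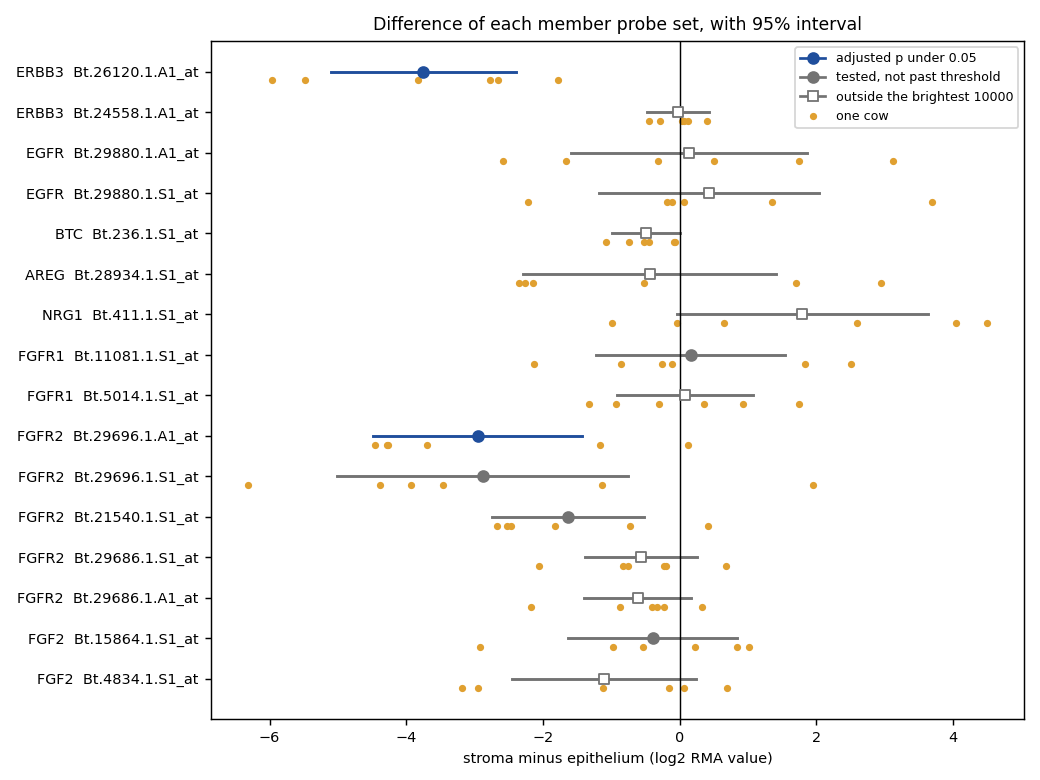
Stroma minus epithelium difference of each of the 16 probe sets (horizontal axis, log2 RMA value), with 95% intervals from limma and a small point for each cow. Of the 6 tested probe sets (circles), the 2 in blue passed the threshold, at -3.75 for ERBB3 and -2.96 for FGFR2. Open squares are the 10 probe sets outside the test.

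FGFR2 was read by 5 probe sets, and the mean of each was lower in stroma. In each of the 5, stroma was lower in 5 of 6 cows. Of the 3 that were tested, 1 passed. These probe sets share the captures and, in 2 pairs, their source sequence, and are not independent measurements.

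The FGFR2 probe set that passed, Bt.29696.1.A1_at, had 1.99 to 4.49 in stroma (median 3.30) and 4.01 to 8.77 in epithelium (median 6.54). Its means were 3.38 ± 0.97 in stroma and 6.34 ± 2.00 in epithelium (SD, n = 6 each). The difference of -2.96 (SE 0.67, limma adjusted p = 0.0269) was a 7.76-fold lower value in stroma, with an interval of 2.69 to 22.4-fold. The stroma of cows 2, 4 and 5 lay under the medians of their arrays, so these folds depend on the background too. Relative to the tested median it was -2.77.

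The ranges overlap because of cows 1 and 4. In cow 1 the values were 4.35 in stroma and 4.22 in epithelium, the sole pair in which stroma was higher. In cow 4 they were 2.86 in stroma and 4.01 in epithelium. In the other cows the difference lay between -4.46 and -3.69. The call is fragile. It was lost without cow 2 (adjusted p = 0.0826), cow 3 (0.0719), cow 5 (0.0696) or cow 6 (0.0764), without a filter on dim probe sets (0.0729) and without cows 5 and 6 (0.171, difference -2.25).

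The paired probe set from the same source sequence, Bt.29696.1.S1_at, had 1.97 to 5.53 in stroma (median 2.66) and 3.10 to 8.93 in epithelium (median 6.36). Its difference of -2.88 (SE 0.94) did not pass (adjusted p = 0.0975). Cow 1 ran the other way, at 5.53 in stroma and 3.58 in epithelium, and without cow 1 the difference was -3.85 (adjusted p = 0.0225). It did not pass in the other 13 of 14 alternatives, among them those without cow 6 (-2.19, adjusted p = 0.215) and without cows 5 and 6 (-1.76, adjusted p = 0.392).

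Probe set Bt.21540.1.S1_at of FGFR2 had 1.79 to 5.02 in stroma (median 2.37) and 3.57 to 5.75 in epithelium (median 4.56). The difference of -1.63 (SE 0.49) did not pass (adjusted p = 0.0746). Here cow 2 was the exception, at 3.99 in stroma and 3.57 in epithelium, and without it the difference was -2.04 (adjusted p = 0.0393). It did not pass in the other 11 of 12 alternatives that hold it, and leaving out cow 1, 3, 4 or 5 gave an adjusted p of 0.144 to 0.194.

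The last pair of FGFR2 probe sets was dim and lay outside the test. Bt.29686.1.S1_at differed by -0.56 (SE 0.35, adjusted p = 0.461) and Bt.29686.1.A1_at by -0.61 (SE 0.33, adjusted p = 0.403). In both, the epithelium of cow 4 stood above that of the other cows, at 5.66 and 4.47, whereas the same capture had the lowest epithelial value of the Bt.29696 pair. With the mean over all 5 probe sets standing for the gene, FGFR2 differed by -1.73 (SE 0.30, limma adjusted p = 0.0168 over 9155 genes).

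**Figure D3:**
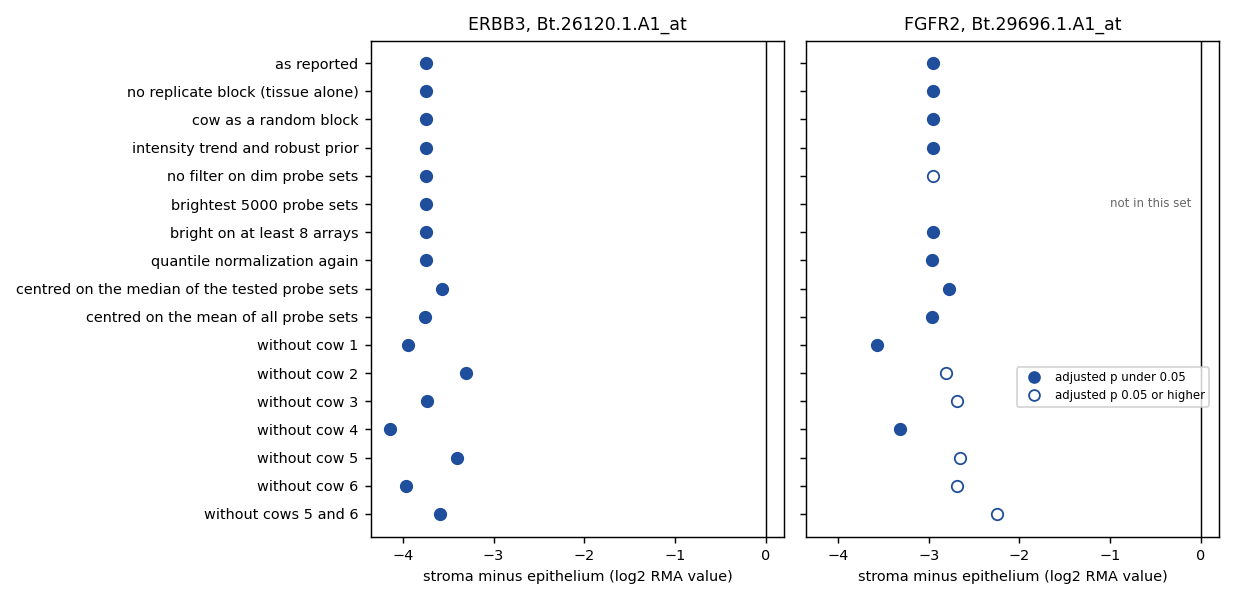
Stroma minus epithelium difference (horizontal axis, log2 RMA value) of the called probe sets of ERBB3 (left) and FGFR2 (right) as reported and under each alternative. Filled points have an adjusted p under 0.05. ERBB3 passed in all 16 alternatives and FGFR2 in 9 of the 15 that hold its probe set.

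The genes nearest to FGFR2 in pattern were SERTAD4, TEX9 and MGST2, an enzyme of glutathione and leukotriene metabolism, at distances of 1.13, 1.15 and 1.23 over the 12 arrays. These distances take in the tissue difference as well. TEX9 itself did not pass (difference -1.65, adjusted p = 0.111).

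FGFR1, a receptor of FGF2 that mesenchymal cells commonly carry, showed no tissue difference at this precision. Probe set Bt.11081.1.S1_at had 1.85 to 5.60 in stroma (median 4.49) and 1.89 to 6.71 in epithelium (median 3.47). Cows differed widely within each tissue, and 4 of 6 arrays of each tissue were above their medians.

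The FGFR1 means were 4.01 ± 1.56 in stroma and 3.84 ± 1.90 in epithelium (SD, n = 6 each), with a difference of 0.16 (SE 0.61, adjusted p = 0.901) and an interval of -1.22 to 1.55. Stroma was higher in 2 of 6 cows. The sign turned without cow 4 (-0.17) or cow 6 (-0.30). The second probe set, Bt.5014.1.S1_at, lay outside the test, with means below the array medians in both tissues, and no direction is read from it (difference 0.08, adjusted p = 0.944).

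FGF2, a ligand that is stored on heparan sulfate of the matrix and leaves cells without a secretion signal, was above the array median on all 12 arrays in probe set Bt.15864.1.S1_at. Its values were 4.64 to 6.96 in stroma (median 6.13) and 4.20 to 7.56 in epithelium (median 6.61). It was thus measured in both tissues, and the ranges overlap.

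The FGF2 means were 5.94 ± 0.88 in stroma and 6.34 ± 1.16 in epithelium (SD, n = 6 each). The difference was -0.39 (SE 0.54, adjusted p = 0.706, interval -1.63 to 0.84), with stroma lower in 3 of 6 cows. It came mainly from cow 3, at 4.64 in stroma and 7.56 in epithelium, and turned to 0.11 without that cow. The dimmer probe set, Bt.4834.1.S1_at, had 1.76 to 2.91 in stroma (median 2.07) and 2.07 to 5.34 in epithelium (median 2.91). All 6 stromal values were under their array medians, and the difference of -1.11 (SE 0.58) did not pass (adjusted p = 0.382), and was -0.69 without cow 1 and -0.74 without cow 3.

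Genes of the same signaling pathways, other than the 10, were drawn from 6 lists of 114 genes in all, of which 60 were on the array and 42 were tested in their brightest probe set. Of the 42, 3 were higher in stroma and 3 in epithelium. The background over 5212 tested genes was 4.49% higher in stroma and 4.62% higher in epithelium. The same shares stand beside the counts of single lists below, which are too small to read as a result about a list. The median difference of the 42 was -0.35, and that of all tested genes was -0.20. The 3 other receptors on the array, FGFR3, FGFR4 and FGFRL1, lay outside the test.

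**Figure D4:**
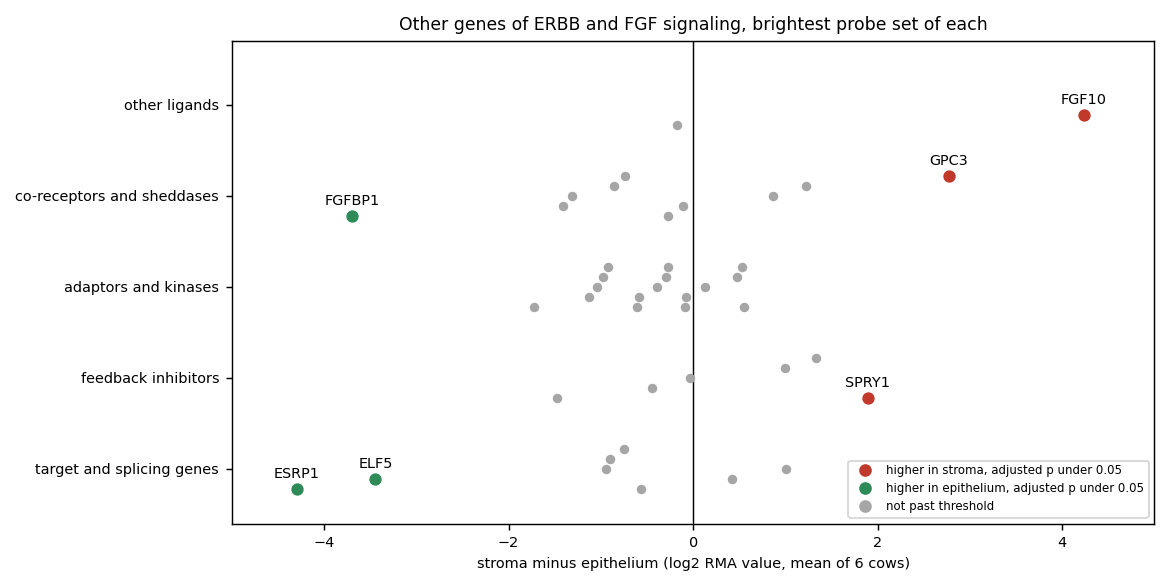
Stroma minus epithelium difference (horizontal axis, log2 RMA value, mean of 6 cows) of 42 tested genes in 5 lists of ERBB and FGF signaling. Red points passed in stroma (FGF10, GPC3 and SPRY1) and green points in epithelium (ESRP1, FGFBP1 and ELF5).

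FGF10, which binds the epithelial form of FGFR2, was 1 of 2 other ligands tested and the sole one that passed. It had 2.81 to 8.68 in stroma (median 6.43) and 1.65 to 2.39 in epithelium (median 1.86). The ranges do not overlap, as for 3.4% of tested probe sets in this direction. Stroma was low in cows 4 and 5 (2.81 and 4.16). Their differences were thereby the smallest, since epithelium was low in every cow.

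The FGF10 difference was 4.23 (SE 0.79, adjusted p = 0.0113), and all 6 cows were higher in stroma, as for 7.05% of tested probe sets. Epithelium lay under the array medians, so the 18.8-fold higher value depends on the background. FGF10 also entered the test through its stromal level alone. Its other 2 probe sets were dim and did not pass (differences 0.61 and 0.44, adjusted p = 0.333 and 0.331). FGF1, the other ligand tested, differed by -0.18 (adjusted p = 0.892).

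Of 10 tested co-receptors and sheddases, 1 was higher in each tissue. FGFBP1, a secreted protein that carries FGFs off the matrix, had 4.52 to 7.74 in stroma (median 6.64) and 8.72 to 11.2 in epithelium (median 10.1). It differed by -3.70 (SE 0.36, adjusted p = 0.000484), a 13.0-fold lower value in stroma. It was lower in all 6 cows and without overlap, as for 9.34% and 2.8% of tested probe sets. GPC3, a heparan sulfate proteoglycan of the cell surface, had 4.02 to 6.16 in stroma (median 5.62) and 2.21 to 3.32 in epithelium (median 2.43). Its difference was 2.77 (SE 0.41, adjusted p = 0.00402), with the epithelial mean below the array medians. GPC3, like FGF10, entered the test through its stromal level, and without the filter its adjusted p was 0.00775.

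Among target and splicing genes, 2 of 8 were higher in epithelium and 0 in stroma, against 4.62% and 4.49% of all tested genes. ESRP1, which directs splicing of FGFR2 towards the epithelial form, had 2.48 to 4.76 in stroma (mean 3.71) and 7.16 to 9.03 in epithelium (mean 8.01), a difference of -4.30 (SE 0.52, adjusted p = 0.00130). ELF5, an ETS factor of milk-secreting cells in mice, differed by -3.44 (SE 0.62, adjusted p = 0.00974). The immediate-early genes FOS, FOSL1 and EGR1 did not pass (differences -0.95, -0.74 and -0.56).

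SPRY1, a feedback inhibitor of receptor tyrosine kinases, was the sole member of its list of 6 that passed, with 7.44 to 9.40 in stroma (median 8.84) and 3.84 to 7.86 in epithelium (median 7.29). Its difference of 1.89 (SE 0.48, adjusted p = 0.0424) had the same sign in all 6 cows. The epithelium of cow 4 stood apart at 3.84, where the next lowest was 6.47. The call was lost in 9 of 16 alternatives, among them the fit without the cow block (0.0783) and those without cow 1 (0.125), cow 2 (0.0902), cow 3 (0.0753), cow 4 (0.112) or cow 6 (0.0821).

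None of the 16 tested adaptors and kinases passed in either tissue (limma, with 1 in epithelium and 0 in stroma at an unadjusted p under 0.05). The largest of their differences was that of PIK3R1, the regulatory subunit of PI3K, at -1.72 (SE 0.57, adjusted p = 0.104). HRAS, GRB2 and MAPK3 had the smallest differences of the 16, at -0.08, -0.09 and 0.13. The median difference of the 16 was -0.35, and that of all tested genes was -0.20.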

How the data were processed

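RNA of each capture was amplified with a whole-transcriptome kit and hybridized to a Bovine GeneChip. The deposited values are log2 intensities. The authors computed them with RMA and quantile normalization across a set of 24 arrays that includes these 12. Quantile normalization forces like distributions on both tissues. Symbols came from the platform annotation. Of 24128 probe sets, 112 are controls. Of the others, 13292 have 1 symbol, and 0 symbols changed when matched by gene ID.

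The study filtered on detection calls and fitted tissue alone. Those calls were not used here. In place of that filter, the 10000 probe sets with the highest mean were tested in R 4.3.3 with limma 3.58.1, with a fixed term for cow and default eBayes settings. Pairs come from the series' design and the shared replicate numbers, which mark 1 animal. Deviations of both tissues of a cow correlated at 0.03 to 0.20, and in 4 of 6 cows this was the highest correlation of the stromal capture. A gene of the pathway lists stands for its brightest probe set. The fit was tested on simulated data.

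The members, lists and alternatives were chosen with earlier results of these data known. All member probe sets, pathway genes past the threshold (at most 4 per list) and the 3 genes nearest in pattern to a called member were named by rule. Other genes were chosen after their values were seen. Alternatives were the block, the prior, the filter, the normalization, leaving out cows and averaging a gene over its probe sets. The number of arrays limits the precision. Coordinates and sequences were not used here.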

Additional observations from a re-analysis of the deposited data

Results flagged for a closer look

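Among 66 sets of 6 values (stroma, epithelium and the difference for each member probe set and each called pathway gene), 4 held a value far from the other 5, by Dixon's test at the 95% level. Chance flags about 1 in 20 such sets. EGFR in Bt.29880.1.S1_at was 3.93 in the epithelium of cow 1, against at most 2.38 in the epithelium of the others. FGFR2 in the epithelium of cow 4 was 5.66 in Bt.29686.1.S1_at and 4.47 in Bt.29686.1.A1_at, where the next values were 3.32 and 2.66. SPRY1 was 3.84 in the epithelium of cow 4, and its next lowest value was 6.47. Of the 4, 3 lie in the same capture, and both FGFR2 probe sets share a source sequence.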

How the results depend on the processing

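The fit with no replicate block called 0 member probe sets in stroma and 2 in epithelium, as did the fit with the cow block, and gave 481 probe sets in stroma and 463 in epithelium in all. Member probe sets higher in epithelium fell to 1 without a filter and without cows 5 and 6, and were 1 to 3 over fits that left out 1 cow. The count was also 1 with the brightest 5000 probe sets, as the called FGFR2 probe set (rank 5488 by mean) was not among them. Member probe sets higher in stroma were 0 in all 16 alternatives. ERBB3 kept its call in each, and NRG1, EGFR, BTC, AREG, FGFR1 and FGF2 gained none. The counts over all probe sets were 454 in stroma and 477 in epithelium. They were 239 and 274 with the brightest 5000, 193 and 267 with probe sets bright on at least 8 arrays, and 364 and 243 without cows 5 and 6. Leaving out 1 cow gave 328 to 453 in stroma and 265 to 410 in epithelium. Centring on the tested median moved the median difference from -0.18 to -0.01 and gave 515 and 360, so that 41.1% of calls in place of 51.2% were in epithelium.

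Signs turned only for probe sets that did not pass in any fit. FGFR1 differed by -0.17 (Bt.11081.1.S1_at) and -0.41 (Bt.5014.1.S1_at) without cows 5 and 6, and over fits that left out 1 cow by -0.30 to 0.37 and -0.26 to 0.36 (without cow 1, Bt.11081.1.S1_at was not among the 10000). The dim ERBB3 probe set gave 0.16 after centring on the median, 0.069 without cows 5 and 6 and -0.10 to 0.067 over single cows left out. Over those, EGFR gave -0.46 to 0.68 and -0.22 to 0.97, and FGF2 (Bt.15864.1.S1_at) -0.68 to 0.11. The cause was not tested. A level under the array medians is the limit of what the signal shows.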

Other observations

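Of the 42 tested pathway genes, 9 (21.4%) were lower and 5 (11.9%) higher in stroma in all 6 cows. These shares were 9.61% (lower) and 7.00% (higher) for all 5212 tested genes. Among the 42, the 36 that did not pass held 6 lower and 2 higher. No share over all genes that did not pass was taken, so these 6 and 2 have no background of their own. Outside the test, 2 of 18 (SPRED1 and FGFR4) were higher in all 6, also without such a share. Of the genes that did not pass or lay outside the test, those described here were chosen after their values were seen. The others were PIK3R1, FOS, ELF3, GPC1, HSPG2 and FGFR4. SPRED1, an inhibitor of the RAS-MAPK pathway, lay outside the tested probe sets and averaged 3.98 in stroma and 1.82 in epithelium (difference 2.16, limma adjusted p = 0.0600 in the fit of all probe sets). CD9, a tetraspanin, averaged 10.2 in stroma and 11.5 in epithelium (difference -1.32, adjusted p = 0.0673). Its ranges do not overlap, as for 2.8% of tested probe sets in this direction. ADAM10, a protease that sheds BTC in mouse cells, averaged 6.28 in stroma and 7.69 in epithelium (difference -1.41, adjusted p = 0.0842). RASA1, a RAS inhibitor, averaged 3.11 in stroma and 4.59 in epithelium (difference -1.48, adjusted p = 0.0775).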
